A study of Mus musculus with 10 samples.

Results

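When 2 agents are given alone and together, the combined effect can be set against what the single effects predict. Here that comparison was made for T cells of mouse melanomas treated with an inhibitor of CSF1R and an agonistic antibody to CD40. The measure is the log2 interaction of a gene: its mean in the combination, minus its mean under the inhibitor, minus its mean under the antibody, plus its mean in the controls, on the scale of log2 of the normalized count plus 1. At 0 the combination equals the control level multiplied by both single-agent folds, which is called the expected level below. A positive value means that the combination lay above that level, and a negative value that it lay below. All 10 of the 10 libraries of the series entered the contrast, and the test covered 15716 of 48825 genes, those with 10 or more normalized counts in 2 or more of the libraries.

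The groups were tumors given both agents (CSF1Ri+CD40, 2 libraries), tumors given only the inhibitor (CSF1Ri, 2 libraries), tumors given only the antibody (CD40, 3 libraries), and tumors given neither (Control, 3 libraries). All mice, controls included, were of the same strain, with the alleles BrafCA and Tyr::CreER among those it carries. A tamoxifen-inducible Cre under the tyrosinase promoter acts in its melanocytes and activates a mutant Braf allele, and tumors were induced locally. The genotype field reads wild type in every group. The inhibitor was PLX6134 in chow at 600 mg/kg, the antibody was FGK4.5 at 10 mg/kg into the peritoneum every 3 days for up to 10 doses, and controls had normal chow and PBS. Treatment began 30 days after induction, with tumors under 100 mm3, and ran for 30 days or until 2 cm3. Ages are given only as matched. Each library pooled at least 3 tumors, so p-values measure the spread between pools.

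CSF1R is the receptor for CSF1 and IL-34, on which most tissue macrophages depend for survival, so its inhibitors deplete or reprogram macrophages of tumors. CD40 sits on dendritic cells, macrophages and B cells, and its ligation, normally by CD40 ligand on helper T cells, licenses these cells to present antigen and to make cytokines such as IL-12. T cells carry little of either receptor, so both agents reach them mainly through other cells. In skin, a share of T cells makes the type 17 cytokines IL-17A, IL-17F and IL-22, among them γδ T cells that respond to IL-1 and IL-23 from myeloid cells. These cytokines act on keratinocytes and other barrier cells and draw in neutrophils.

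The samples are T cells by title but macrophages by their tissue field. The summed level of 20 genes of T cell identity was 134947 to 214978 normalized counts per library, against 7053 to 24988 for the 24 macrophage genes tested, and Csf1r itself had 30 to 235. Totals ran from 11538244 to 14024851. Some libraries stand apart. Transcripts of 4 Y-linked genes summed to 2438 in Control 1, 1569 in CD40 2 and 3072 in CD40 3, and to 0 or 1 in the other 7, which leaves them out of all libraries that had the inhibitor. CD40 3 also had the highest Malat1, a nuclear RNA (95260, against 14056 to 59286 in the others), and the lowest mitochondrial sum (123380, against 200216 to 370442). Values without these libraries are given beside many of the results. Among the 7 libraries without Y-linked transcripts, CD40 1 is the only CD40 library.

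No gene departed from the expected level at an adjusted p under 0.05 (limma, two-sided, Benjamini-Hochberg over 15716 genes, 0.0% called), and the smallest adjusted p was 0.565. At an unadjusted p under 0.05 there were 655 genes (4.17%), 365 with a positive interaction (2.32% of genes tested) and 290 with a negative one (1.85%). The share of 4.17% is below the 0.05 that this threshold would give on average with no interaction in any gene. The median interaction was −0.02 and 49.1% of genes were positive. The counts had been scaled so that the typical gene has about the same level in every library. These values therefore cannot show whether the transcriptome as a whole lay above or below expectation. On the linear scale, where the single-agent differences are added, all 655 genes kept their sign. Every gene described below is therefore one that did not pass the adjusted threshold, and its values are given as a description of these libraries.

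Precision was limited. The median standard error of the log2 interaction was 0.98, and the median 95% interval reached 2.15 to either side of the estimate. Among 2275 genes averaging 1000 normalized counts or more, these were 0.39 and 0.85. For genes with a mean of 50 to 100, the median standard error was 1.34.

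A second view asks whether an agent did the same with and without the other. Across 8843 genes averaging 100 or more, the inhibitor effect in the presence of the antibody (CSF1Ri+CD40 over CD40) and in its absence (CSF1Ri over Control) had a Pearson r of 0.02 and a Spearman rho of 0.01. For the antibody effect with the inhibitor (CSF1Ri+CD40 over CSF1Ri) and without it (CD40 over Control), r was 0.05 and rho −0.01. In each pair no library is shared, and the correlation is across genes, which are not independent replicates. With 1 library left out, r ran from −0.11 to 0.12 for the inhibitor and from −0.04 to 0.15 for the antibody. Where genes averaged 1000 or more, r was 0.07 for the inhibitor and 0.09 for the antibody. The 4 simple effects had SDs across genes of 0.63 and 0.56 for the inhibitor with and without the antibody, and 0.61 and 0.61 for the antibody with and without the inhibitor, and 0, 1, 0 and 1 gene in that order passed an adjusted p of 0.05 in limma. Measurement error lowers such correlations, by an amount that was not estimated.

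**Figure D1:**
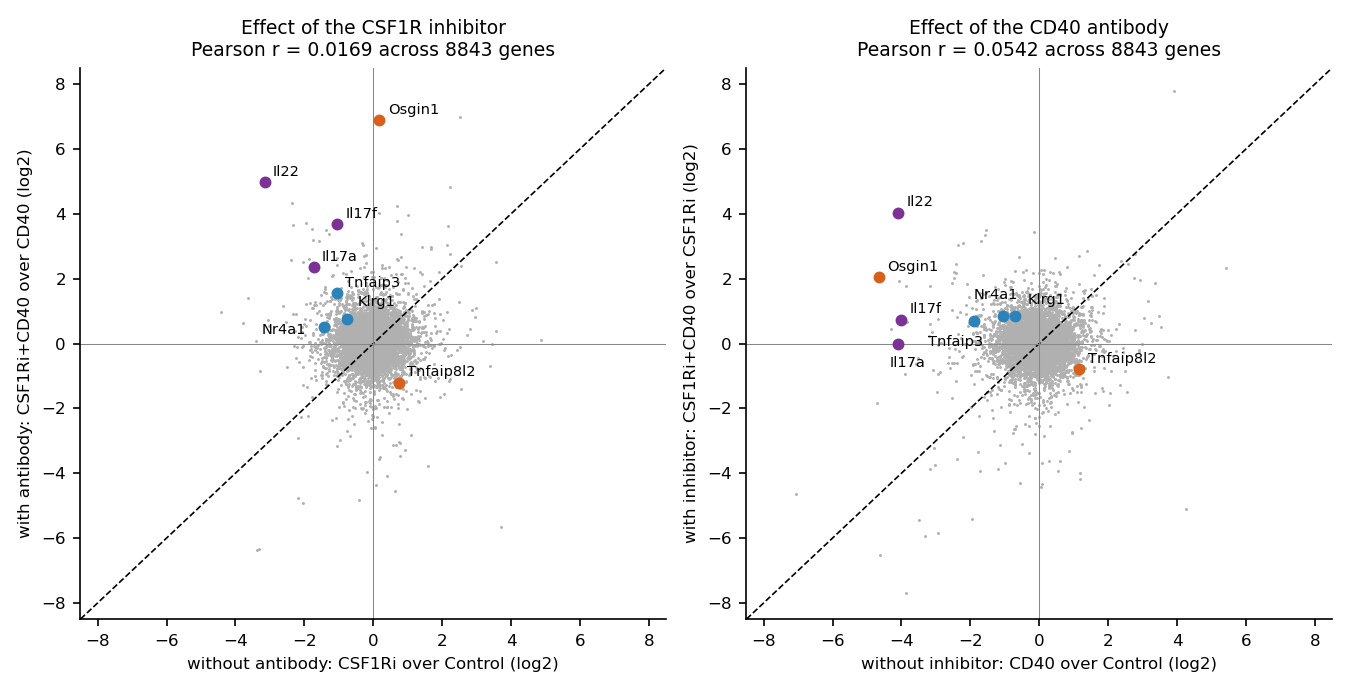
Log2 effect of an agent with the other (vertical) against its log2 effect alone (horizontal) for 8843 genes. Left, the inhibitor; right, the antibody; the dashed line marks equal effects, where the interaction is 0. Il22, Il17f and Il17a lie far above the line in both panels, and Tnfaip8l2 lies below it. The vertical distance of a gene from the line is its interaction in either panel, so the panels do not support each other on this.

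The type 17 cytokines lay far above the expected level in the combination. Il17a, the signature cytokine of type 17 cells (GRCm38, chr1:20730905-20734496, plus strand), had 1215 and 978 normalized counts in CSF1Ri+CD40 libraries, 1070 and 1138 in CSF1Ri libraries, 485, 155 and 128 in CD40 libraries, and 3182, 3672 and 4222 in Control libraries. The combination and CSF1Ri libraries overlapped, all CD40 libraries lay below them, and all Control libraries above. The antibody effect was −0.02 with the inhibitor and −4.10 without it (log2). In pooled cells, fewer cells of a type and less RNA per cell cannot be told apart. The combination was observed at 1090 normalized counts, against 63.4 expected from the single-agent folds, and the interaction was 4.08 ± 0.65 (SE; 95% interval 2.65 to 5.51; unadjusted p = 5.16e-05, adjusted p = 0.565, limma). Among the 7 libraries without Y-linked transcripts it was 3.00, and it ran from 3.72 to 4.68 with 1 library left out. Without CD40 1, the CD40 library with most Il17a, the adjusted p was 0.00237, the smallest of the 10 fits with 1 library left out.

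Il22 encodes a cytokine whose receptor is on epithelial cells rather than on immune cells (chr10:118204942-118210047, plus strand). It had 455 and 419 normalized counts in CSF1Ri+CD40 libraries, 11 and 58 in CSF1Ri libraries, 12, 2 and 67 in CD40 libraries, and 191, 294 and 231 in Control libraries. All 5 single-agent libraries were below all 3 Control libraries, and both combination libraries were above every other library. The inhibitor effect was 4.98 with the antibody and −3.15 without it. The interaction was 8.13 ± 1.59 (95% interval 4.65 to 11.61, unadjusted p = 0.000293, limma), and its size depends on the pseudocount, with 8.27 at 0.5 and 6.73 at 10. It was 8.37 among the 7 libraries without Y-linked transcripts.

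Il17f, the neighbor and closest relative of Il17a (chr1:20777146-20790617, minus strand), was added after its values were seen. It had 3997 and 4370 normalized counts in CSF1Ri+CD40 libraries, 2044 and 3067 in CSF1Ri libraries, 2058, 188 and 86 in CD40 libraries, and 3196, 7086 and 6212 in Control libraries. The combination lay above all CSF1Ri and CD40 libraries and within the range of the controls. The observed level was 4179 against 155 expected, and the interaction was 4.75 ± 1.36 (unadjusted p = 0.00478, adjusted p = 0.991, limma). It was 2.43 among the 7 libraries without Y-linked transcripts, a set without CD40 2 and CD40 3, the libraries with least Il17f. Without CD40 1, the CD40 library with most Il17f, the adjusted p was 0.00964 in limma. That was the smallest adjusted p of the 10 fits with 1 library left out.

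Promoters of the 3 cytokines are a feature that the contrast did not use. RefSeq windows of 300 bases (GRCm38.p6, from 250 before to 50 after the annotated start) were searched on both strands for the TATA box TATAAA, the AP-1 element TGANTCA, the AP-1-like element TGCGTCA and the kB-like element GGGNNTTCC. The TATA letters were in the windows of Il17a, Il17f and Il22, and in 13.6% of all 32851 windows. In the window of Il22 they lie in the upstream part, far from the annotated start, so there only the letters are meant. The window of Il17a (chr1:20730655-20730954, plus strand) is printed because this gene had the smallest p. Capitals mark a match to TGANTCA and the TATA box. The N stands for any base and is A in this match, and matches with any base there were in 7.81% of all windows.
Il17a: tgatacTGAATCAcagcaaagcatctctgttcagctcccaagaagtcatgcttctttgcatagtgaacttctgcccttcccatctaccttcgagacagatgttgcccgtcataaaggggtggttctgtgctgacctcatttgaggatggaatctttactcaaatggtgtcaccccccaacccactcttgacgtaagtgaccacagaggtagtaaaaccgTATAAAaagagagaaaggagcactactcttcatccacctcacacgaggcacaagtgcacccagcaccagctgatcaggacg

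The wider list of type 17 and γδ genes moved less evenly. Of 20 members tested, 14 had a positive interaction, 5 of them at an unadjusted p under 0.05, and 6 had a negative one, none at that level. Over all genes tested, 2.32% were positive and 1.85% negative at that level. The list median was 0.81, against −0.02 over all genes tested. The median inhibitor effect was 0.18 with the antibody and −0.58 without it, and the median antibody effect was −0.48 with the inhibitor and −1.23 without it. Without CD40 2, 10 of 20 were positive and the median was 0.00, and among the 7 libraries without Y-linked transcripts it was 0.14.

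Tcrg-C4, a constant segment of the γ chain of the γδ receptor, had 747 and 653 normalized counts in CSF1Ri+CD40 libraries, 558 and 916 in CSF1Ri libraries, 427, 404 and 419 in CD40 libraries, and 1148, 1070 and 1235 in Control libraries. Again the combination overlapped CSF1Ri, above CD40 and below Control, and the interaction was 1.43 ± 0.40 (unadjusted p = 0.00385). Reads from the closely related γ constant segments may have been split among them. In contrast Trdc, the δ constant segment, had an interaction of 0.09 (95% interval −1.03 to 1.21), with 3061 and 3123 normalized counts in CSF1Ri+CD40 libraries, 3686 and 7133 in CSF1Ri libraries, 2450 to 5940 in CD40 libraries and 5633 to 7929 in Control libraries. Maf, a transcription factor of IL-17-producing γδ cells, had 1.17 (0.04 to 2.30), and Il23r, the IL-23 receptor subunit, 1.86 (−1.17 to 4.89). Trdc, Maf and Il23r were chosen after their values were seen.

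**Figure D2:**
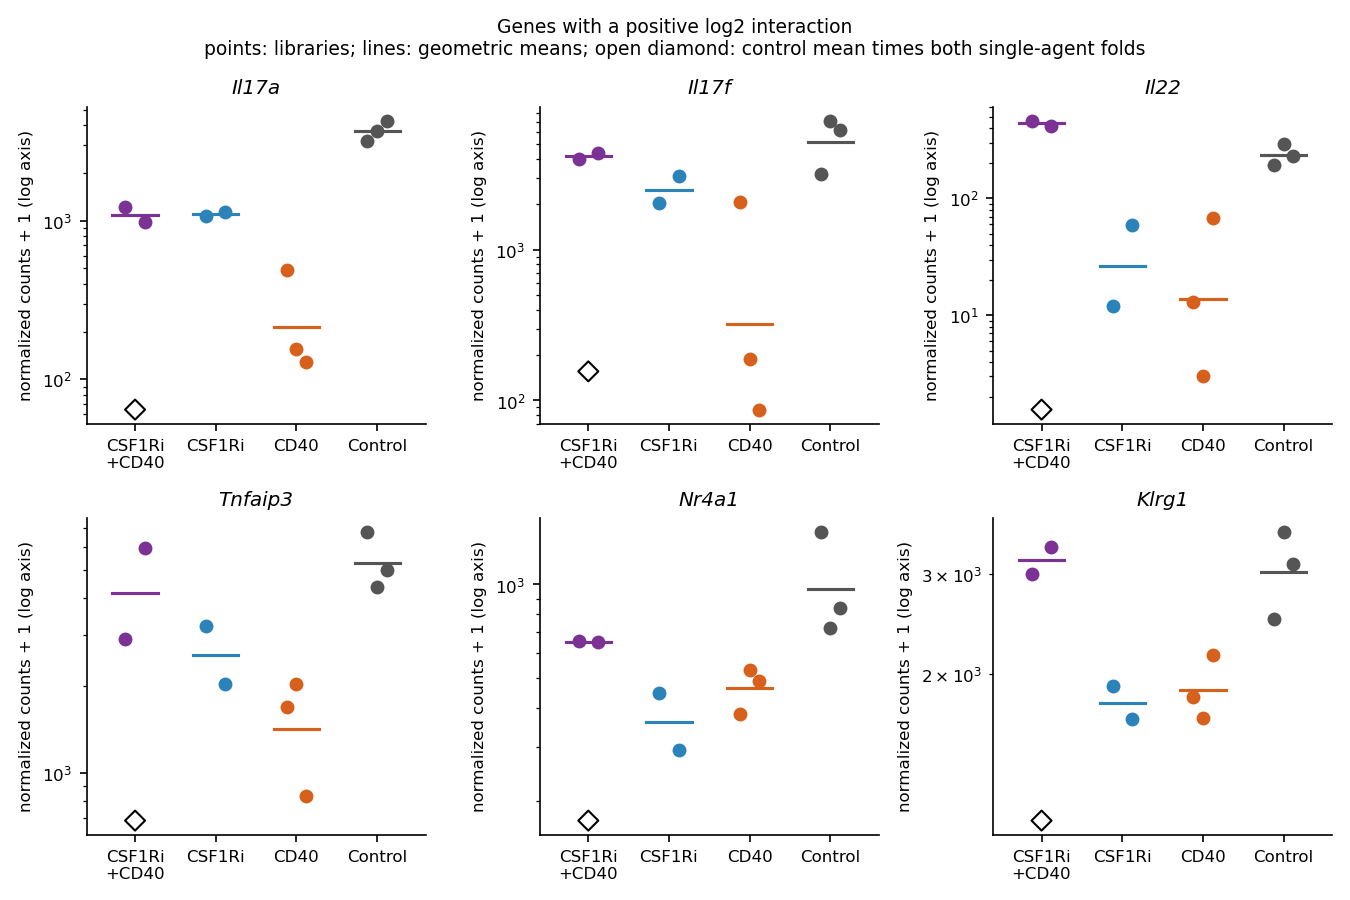
Normalized counts plus 1 (log axis) of 6 genes with a positive interaction in CSF1Ri+CD40, CSF1Ri, CD40 and Control libraries. Points are libraries, lines are geometric means and the open diamond is the level expected from the single-agent folds. For every gene shown, both combination libraries lie above the diamond, for Il17a at 1215 and 978 against 63.4.

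Tnfaip3 encodes A20, the ubiquitin-editing enzyme that shuts off NF-kB signaling (chr10:19000910-19015657, minus strand). It had 2906 and 5964 normalized counts in CSF1Ri+CD40 libraries, 3223 and 2029 in CSF1Ri libraries, 1690, 2031 and 833 in CD40 libraries, and 6755, 4391 and 5004 in Control libraries. Every single-agent library was below every Control library, whereas the combination libraries spread over both ranges. The observed level was 4163 against 685 expected, and the interaction was 2.60 ± 0.58 (95% interval 1.33 to 3.87, unadjusted p = 0.000831), with 2.22 without CD40 3 and 2.17 among the 7 libraries without Y-linked transcripts.

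Nr4a1 encodes NUR77, an orphan nuclear receptor that reads out recent antigen-receptor signaling (chr15:101254269-101274795, plus strand). Its values were 658 and 649 normalized counts in CSF1Ri+CD40 libraries, 445 and 291 in CSF1Ri libraries, 381, 528 and 488 in CD40 libraries, and 1471, 722 and 841 in Control libraries. The 4 groups formed 3 separate layers, with Control highest, the combination next and all single-agent libraries lowest. The interaction was 1.92 ± 0.50 (unadjusted p = 0.00271), and 1.96 without CD40 3.

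Zfp36 encodes tristetraprolin, which promotes decay of cytokine mRNAs. It had 5286 and 5228 normalized counts in CSF1Ri+CD40 libraries, 4796 and 3856 in CSF1Ri libraries, 3509, 3165 and 3353 in CD40 libraries, and 6132, 4402 and 6548 in Control libraries. Both combination libraries lay above all single-agent libraries and within the range of the controls, with an interaction of 1.04 ± 0.31 (unadjusted p = 0.00556). Its relative Zfp36l2 had 1300 and 1747 in CSF1Ri+CD40 libraries, 1298 and 939 in CSF1Ri libraries, 687, 833 and 1219 in CD40 libraries, and 3010, 1986 and 2409 in Control libraries, an interaction of 1.90 ± 0.43 (unadjusted p = 0.000971). Dusp5, a nuclear phosphatase of ERK, had 2.17 ± 0.71 (unadjusted p = 0.0107), with 524 and 1022 normalized counts observed in the combination against 162 expected.

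In the list of immediate early and receptor-signaling genes, 23 of 27 members tested had a positive interaction, 5 at an unadjusted p under 0.05. Of the 4 negative ones 1 was at that level. In all, 22.2% of the list was at that level, against 4.17% of all genes. The median was 1.04. The inhibitor effect had a median of 0.48 with the antibody and −0.32 without it, and the antibody effect 0.29 with the inhibitor and −0.68 without it. The median ranged from 0.77 to 1.37 with 1 library left out, lowest without CD40 3. Junb, a subunit of AP-1, had 1.42 and Nr4a2, a relative of Nr4a1, 4.05. The exception at that level was Ier3, an early response gene that counters cell death, at −2.40 (unadjusted p = 0.0245), while Egr1 and Egr2, zinc-finger factors of the same early wave, were negative at −0.71 and −1.46. Junb, Nr4a2, Ier3, Egr1 and Egr2 were chosen after their values were seen.

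The NF-kB feedback list was closer to expectation. Of 28 members tested 19 were positive, 2 of them at an unadjusted p under 0.05, and 9 were negative, 1 at that level, with a median of 0.21. That put 10.7% of the list at that level, against 4.17% of all genes. Besides Tnfaip3, Bcl3, an atypical IkB protein, had an interaction of 1.95 ± 0.79 (unadjusted p = 0.0298). Tnf went the other way, at −1.43 ± 0.59 (unadjusted p = 0.0328), with 345 and 165 normalized counts in CSF1Ri+CD40 libraries, 385 and 452 in CSF1Ri libraries, 750, 662 and 381 in CD40 libraries, and 353, 317 and 460 in Control libraries. Nfkbia, the classical feedback inhibitor, had 0.31 and was chosen after its value was seen.

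Promoter windows of Tnfaip3 (chr10:19015361-19015660, minus strand) and Nr4a1 (chr15:101266596-101266895, plus strand) are printed because these genes represent the NF-kB and receptor-signaling lists. That of Tnfaip3 held the letters TATAAA, an AP-1 element and a kB-like element, shown in capitals in this order, the last being in 5.82% of all windows. Its TATAAA lies near the upstream end, far from the annotated start, so only the letters of a TATA box are meant. That of Nr4a1 held the AP-1-like element 4 times, which 2.12% of all windows held at least once.
Tnfaip3: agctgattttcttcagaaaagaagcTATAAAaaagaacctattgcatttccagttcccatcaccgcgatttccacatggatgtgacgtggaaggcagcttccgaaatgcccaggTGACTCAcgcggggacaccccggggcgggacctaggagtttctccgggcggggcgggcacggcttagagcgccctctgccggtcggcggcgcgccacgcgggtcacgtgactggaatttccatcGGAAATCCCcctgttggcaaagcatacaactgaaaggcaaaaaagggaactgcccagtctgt
Nr4a1: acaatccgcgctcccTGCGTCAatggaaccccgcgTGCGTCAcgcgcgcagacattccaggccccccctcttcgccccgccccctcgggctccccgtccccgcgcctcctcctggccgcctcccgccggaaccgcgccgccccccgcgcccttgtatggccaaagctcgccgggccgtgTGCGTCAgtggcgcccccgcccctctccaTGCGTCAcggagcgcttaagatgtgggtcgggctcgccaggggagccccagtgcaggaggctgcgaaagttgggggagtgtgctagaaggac
A second annotated start of Tnfaip3 had none of the 4 motifs in its window. A match of letters is a description and does not show that a factor binds.

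Klrg1 had the smallest standard error among the 10 genes with the smallest p in the positive direction. It encodes an inhibitory receptor for cadherins on effector T cells and natural killer cells. Its values were 3009 and 3350 normalized counts in CSF1Ri+CD40 libraries, 1900 and 1661 in CSF1Ri libraries, 1820, 1670 and 2161 in CD40 libraries, and 2499, 3558 and 3130 in Control libraries. Each agent alone went with a level below every Control library, and both together with a level inside the range of the controls. The interaction was 1.53 ± 0.32 (95% interval 0.83 to 2.23, unadjusted p = 0.000479), with a range of 1.42 to 1.67 on leaving out 1 library, and 1.71 among the 7 libraries without Y-linked transcripts.

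Prdm1, which encodes the effector and residency factor BLIMP1, had 517 and 846 normalized counts in CSF1Ri+CD40 libraries, 268 and 278 in CSF1Ri libraries, 162, 225 and 337 in CD40 libraries, and 616, 251 and 645 in Control libraries. The combination lay above all single-agent libraries, although 1 Control library was as low as those, and the interaction was 2.28 ± 0.68 (unadjusted p = 0.00598). Within the residency and homing list the members were split, with 9 of 20 positive and a median of −0.02. At an unadjusted p under 0.05 there were 5 positive members and 0 negative ones, against 2.32% and 1.85% of all genes. Those named by rule were Ahr, a ligand-activated transcription factor of type 17 and resident cells (3.28 ± 1.05), Cxcr4, the receptor of CXCL12 (1.03 ± 0.35), and Cd69, which holds T cells in tissue (1.04 ± 0.35). Cd69 had 6184 and 9429 normalized counts in CSF1Ri+CD40 libraries, 5955 and 5528 in CSF1Ri libraries, 5742, 4406 and 3615 in CD40 libraries, and 6072, 7314 and 7520 in Control libraries.

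Among the other genes with a small p in the positive direction, Epc2, a homolog of a subunit of the NuA4 acetyltransferase, had 258 and 330 normalized counts in CSF1Ri+CD40 libraries, 182 and 163 in CSF1Ri libraries, 114, 18 and 48 in CD40 libraries, and 325, 318 and 455 in Control libraries. Bmi1, of the polycomb repressive complex PRC1, had 290 and 246 in CSF1Ri+CD40 libraries, 201 and 190 in CSF1Ri libraries, 147, 156 and 104 in CD40 libraries, and 426, 390 and 421 in Control libraries. In both genes every single-agent library was below every other library. The interactions were 3.69 ± 0.92 and 2.07 ± 0.52. Cenpi, a centromere protein, had 431 and 417 in CSF1Ri+CD40 libraries, 52 and 143 in CSF1Ri libraries, 187, 142 and 181 in CD40 libraries, and 266, 184 and 221 in Control libraries, with an interaction of 2.67 ± 0.68.

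Across the transcriptome, 63 genes (0.401%) had all 5 single-agent libraries below all 5 Control and combination libraries, and 55 genes (0.35%) had them all above. The share that a random order of the libraries would give was not computed. These counts therefore do not show that any gene was non-additive. Il22 and Epc2 were 2 of the 5 genes with the widest such gaps in the lower set. Pofut1, which adds the O-fucose that Notch receptors need, was another, with 139 and 177 normalized counts in CSF1Ri+CD40 libraries, 69 and 46 in CSF1Ri libraries, 86, 35 and 104 in CD40 libraries, and 148, 159 and 281 in Control libraries. So was Pcbp4, an RNA-binding protein, at 78 and 79 in CSF1Ri+CD40 libraries, 45 and 23 in CSF1Ri libraries, 16, 21 and 9 in CD40 libraries, and 102, 92 and 77 in Control libraries. The lower level with either agent alone is the order that these genes were picked for, so it is not a separate result. With both agents together their level was near or above that of the controls.

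In the upper set, Tnfaip8l2 combined a wide gap with the smallest p in the negative direction. It encodes TIPE2, which restrains signaling from T cell and Toll-like receptors (chr3:95139521-95142360, minus strand). There were 1938 and 1043 normalized counts in CSF1Ri+CD40 libraries, 2333 and 2601 in CSF1Ri libraries, 3275, 3671 and 2947 in CD40 libraries, and 1041, 1643 and 1832 in Control libraries. The single-agent libraries did not overlap with the others, and the combination was observed at 1422 against 5528 expected. The interaction was −1.96 ± 0.44 (95% interval −2.92 to −1.0, unadjusted p = 0.000844), −1.71 among the 7 libraries without Y-linked transcripts, and from −2.40 to −1.51 with 1 library left out.

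Among the other genes with a small p in the negative direction, Tmem126b, an assembly factor of respiratory complex I, had 338 and 386 normalized counts in CSF1Ri+CD40 libraries, 746 and 834 in CSF1Ri libraries, 686, 772 and 508 in CD40 libraries, and 357, 480 and 466 in Control libraries, with an interaction of −1.71 ± 0.43 (unadjusted p = 0.0019). Tomm40l, a paralog of the pore of the outer-membrane import complex, had 157 and 115 in CSF1Ri+CD40 libraries, 386 and 450 in CSF1Ri libraries, 364, 395 and 251 in CD40 libraries, and 311, 232 and 248 in Control libraries, with −1.96 ± 0.53. In both genes all single-agent libraries lay above both combination libraries. Peo1, the older symbol of the helicase of mitochondrial DNA, had 3 and 0 in CSF1Ri+CD40 libraries, 113 and 90 in CSF1Ri libraries, 116, 193 and 38 in CD40 libraries, and 73, 25 and 100 in Control libraries. At such low counts its interaction depends on the pseudocount, being −6.40 at 1 and −3.93 at 10.

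Rit1, a Ras-related GTPase, had 512 and 489 normalized counts in CSF1Ri+CD40 libraries, 647 and 788 in CSF1Ri libraries, 847, 788 and 669 in CD40 libraries, and 341, 487 and 473 in Control libraries (interaction −1.35 ± 0.41). Ankrd46, an ankyrin-repeat protein, had 454 and 437 in CSF1Ri+CD40 libraries, 730 and 807 in CSF1Ri libraries, 838, 653 and 671 in CD40 libraries, and 398, 550 and 537 in Control libraries (−1.33 ± 0.40). In both genes every single-agent library was above every other library, which is the order they were picked for. The combination libraries lay just above all controls for Rit1 and within their range for Ankrd46. The less abundant Ikbip, Tbccd1 and the noncoding 2610035D17Rik had interactions of −3.73, −3.13 and −3.94, from combination libraries at 19 to 110 normalized counts, CSF1Ri libraries at 104 to 309, CD40 libraries at 136 to 377 and Control libraries at 22 to 186.

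**Figure D3:**
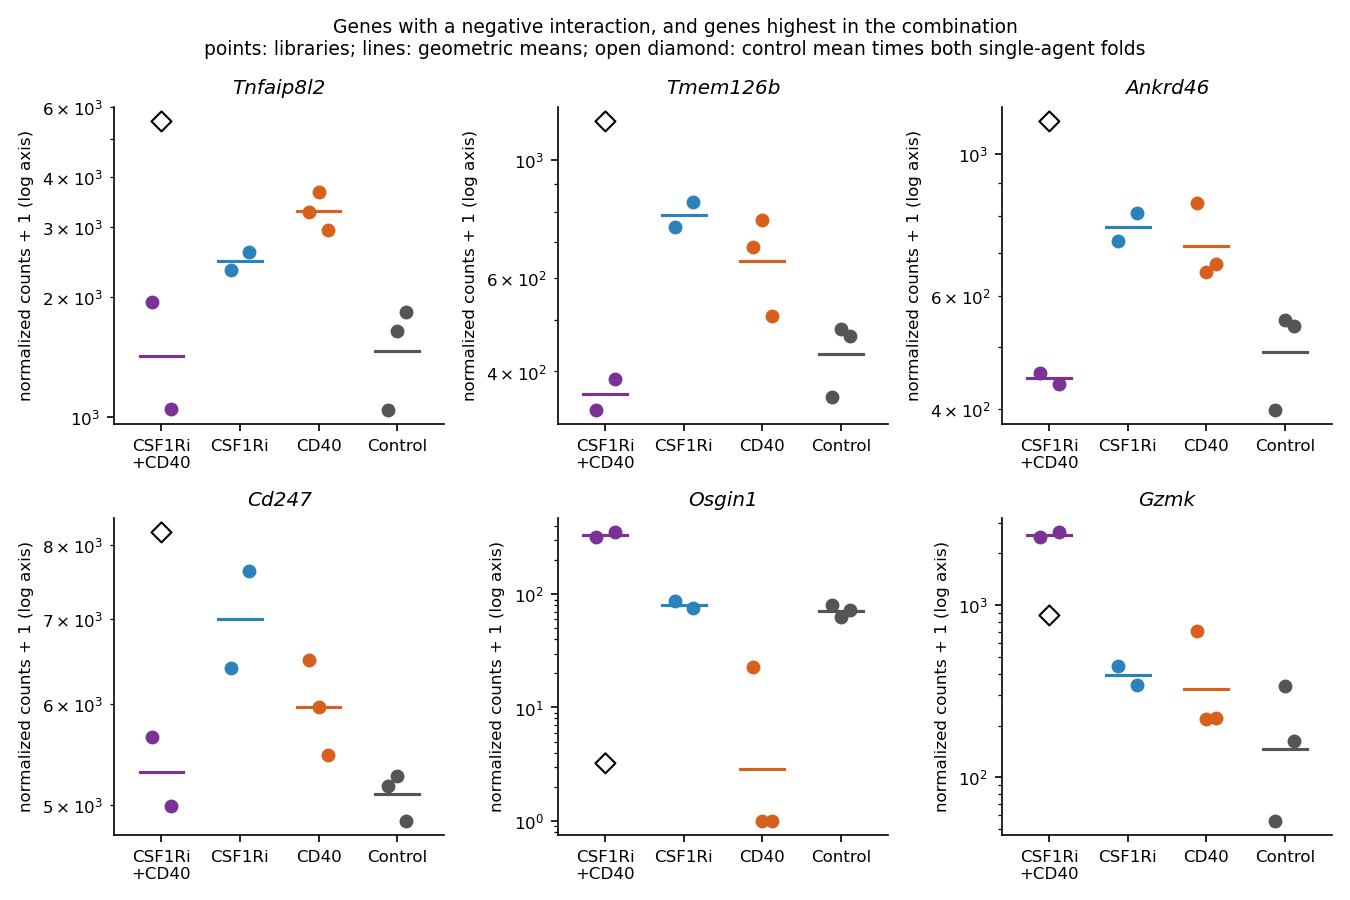
Normalized counts plus 1 (log axis) of 4 genes with a negative interaction and of 2 genes highest in the combination, in CSF1Ri+CD40, CSF1Ri, CD40 and Control libraries. Points are libraries, lines are geometric means and the open diamond is the expected level. Tnfaip8l2, Tmem126b, Ankrd46 and Cd247 lie below the diamond in the combination, and Osgin1 and Gzmk above it.

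Genes of T cell identity lay slightly below expectation. Of 20 tested, 18 had a negative interaction and 2 a positive one, with a median of −0.22. Only 1 of the negative members was at an unadjusted p under 0.05, which is 5.0% of the list, near the 4.17% of all genes. The mean log2 level relative to the control mean was 0.42 and 0.33 in CSF1Ri+CD40 libraries, 0.36 and 0.44 in CSF1Ri libraries, 0.32, 0.42 and 0.01 in CD40 libraries, and −0.03, 0.05 and −0.02 in Control libraries. Every library with an agent except CD40 3 was above the controls, and the combination libraries overlapped with the single-agent libraries. Cd247, the signaling ζ chain of the antigen receptor, had 5647 and 4989 normalized counts in CSF1Ri+CD40 libraries, 6404 and 7629 in CSF1Ri libraries, 6492, 5966 and 5469 in CD40 libraries, and 5169, 5265 and 4859 in Control libraries. Its interaction was −0.62 ± 0.26 (unadjusted p = 0.0337). Cd6, a costimulatory scavenger-type receptor, had −0.72 (95% interval −1.44 to 0.01) and Cd4, the coreceptor of helper cells, −0.79 (−1.60 to 0.02). The list median ran from −0.52 to −0.14 with 1 library left out.

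Activation and costimulation genes were alike in direction. Among 22 tested, 17 were negative, 2 at an unadjusted p under 0.05, and 5 positive, 0 at that level, with a median of −0.48. That put 9.09% of the list at that level, against 4.17% of all genes. Each agent had a positive median alone (0.51 for the inhibitor and 0.30 for the antibody) and a median near 0 in the presence of the other (−0.06 and −0.10). Cd7, a costimulatory receptor, had 4634 and 6553 normalized counts in CSF1Ri+CD40 libraries, 5266 and 5664 in CSF1Ri libraries, 5081, 7012 and 5939 in CD40 libraries, and 2214, 3912 and 3204 in Control libraries, so that all treated libraries exceeded all controls and overlapped with each other. It was observed at 5511 in the combination against 10748 expected (−0.96 ± 0.38, unadjusted p = 0.0256), and the interaction was −0.51 among the 7 libraries without Y-linked transcripts. Tnfsf14, which encodes LIGHT, had −1.89 ± 0.82, and Cd40lg, the ligand of CD40 on helper T cells, −0.80 (95% interval −1.69 to 0.09).

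**Figure D4:**
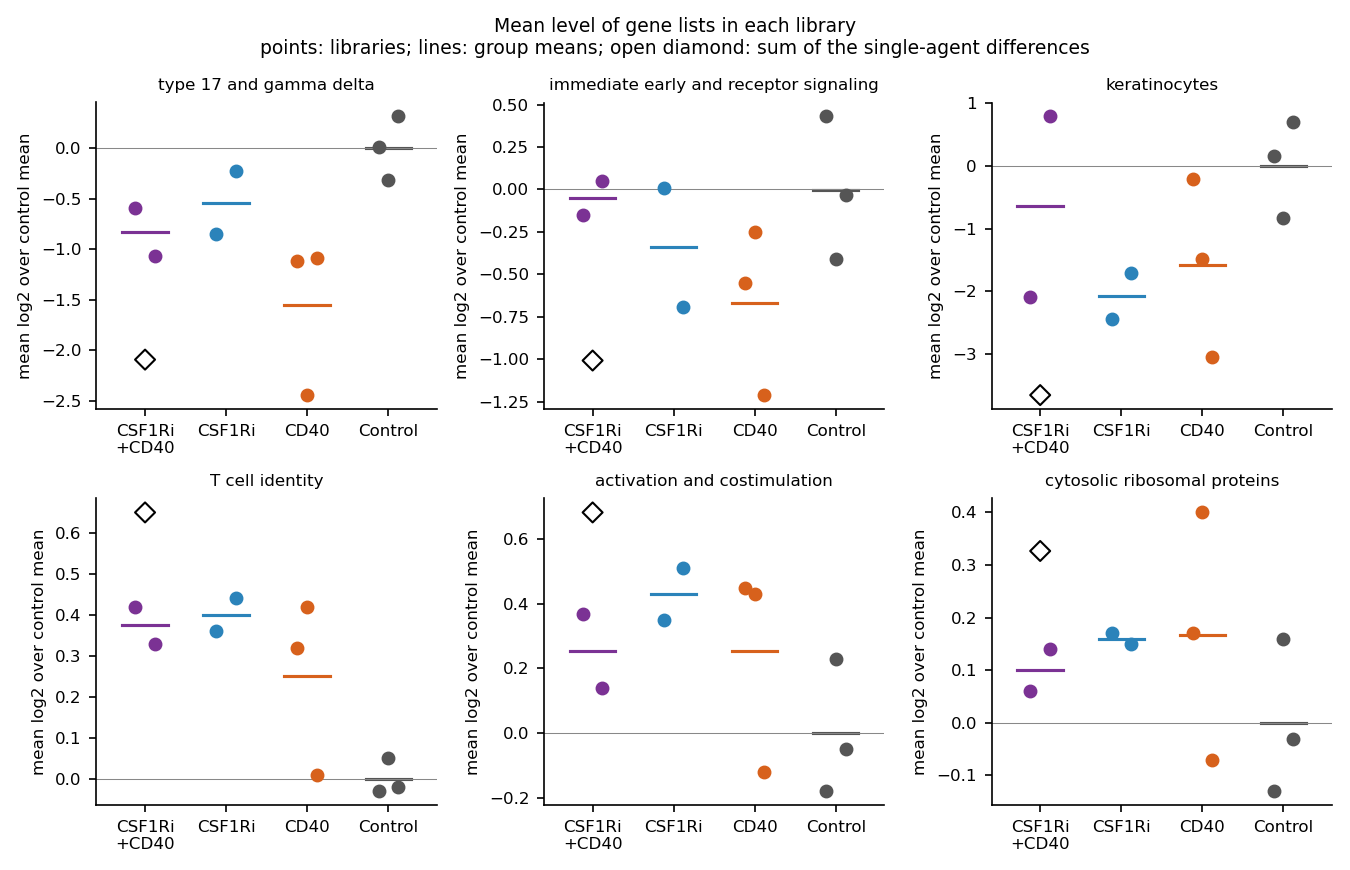
Mean log2 level of 6 gene lists relative to the control mean (vertical) in CSF1Ri+CD40, CSF1Ri, CD40 and Control libraries. Points are libraries, lines are group means, and the open diamond is the sum of the single-agent differences. In the upper lists the combination lies above the diamond, and in the lower lists below it, for T cell identity at 0.42 and 0.33.

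Housekeeping programs showed the same one-sidedness at small size. Of 64 cytosolic ribosomal protein genes, 58 had a negative interaction, with a median of −0.26 and 0 at an unadjusted p under 0.05, and of 38 nuclear genes of the respiratory chain 30 had, with a median of −0.22 and likewise 0. Without CD40 2 the respiratory median was 0.02. All 7 mitochondrially encoded genes tested were positive, with a median of 0.71 and 0 at that level, and 0.41 without CD40 3, which had the lowest mitochondrial sum. Members of such lists share library-wide factors and are not independent of each other.

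Several core genes of T cells lay near the multiplied expectation, though with wide intervals. Gzmb, a cytotoxic protease, had 6901 and 4972 normalized counts in CSF1Ri+CD40 libraries, 3061 and 4732 in CSF1Ri libraries, 4057, 7246 and 2457 in CD40 libraries, and 1820, 3342 and 2513 in Control libraries. Its interaction was −0.12 with a 95% interval from −1.40 to 1.15, which leaves room for a departure of more than 2-fold either way. Cd8a, the coreceptor of cytotoxic T cells, had 3785 and 4947 in CSF1Ri+CD40 libraries, 3223 and 3685 in CSF1Ri libraries, 3949, 2744 and 1051 in CD40 libraries, and 1911, 1691 and 1475 in Control libraries, with −0.09 (−1.43 to 1.24). Without CD40 3, the CD40 library with least Cd8a, it was −0.64.

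The remaining T cell genes that are always given had intervals that include 0. Cd3e, of the antigen receptor complex, had −0.12 (−0.96 to 0.72), the pore-forming Prf1 −0.48 (−1.78 to 0.83), and Tcf7, of memory and stem-like cells, −0.02 (−1.44 to 1.40). For Ifng, the main cytokine of type 1 cells, it was 0.53 (−2.01 to 3.06), and −0.63 without CD40 3, the library with least Ifng at 203 normalized counts. Pdcd1 and Lag3, inhibitory receptors, had −0.93 (−2.13 to 0.28) and −0.65 (−1.91 to 0.62). Foxp3, of regulatory T cells, had 0.68 (−0.23 to 1.58), and Mki67, of dividing cells, 0.52 (−0.39 to 1.43). Among the 7 libraries without Y-linked transcripts, Pdcd1 was at −1.64, Lag3 at −0.29, Ifng at −0.92 and Cd8a at −0.99. None of these 95% intervals shows that the agents acted independently on a gene.

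A level seen only in the combination is another pattern, which can arise without a departure from the expected level. Prf1 was higher in both combination libraries than in the other 8, yet was observed at 856 normalized counts against 1192 expected. Both CSF1Ri+CD40 libraries were above the other 8 for 363 genes (2.31%) and below them for 255 genes (1.62%). Here too the share that a random order of the libraries would give was not computed. Of the 21 cytotoxic effector genes tested, 7 were in the upper set and 0 in the lower one, and their median interaction was 0.18, with 13 positive. That median ran from 0.07, without CD40 3, to 1.04, without CSF1Ri+CD40 3, with 1 library left out. Gzmk, a granzyme of early effector and memory CD8 T cells (chr13:113171608-113225908, minus strand), had 2491 and 2651 normalized counts in CSF1Ri+CD40 libraries, 442 and 345 in CSF1Ri libraries, 710, 217 and 219 in CD40 libraries, and 55, 338 and 161 in Control libraries. The combination lay far above all other libraries, at 2570 observed against 872 expected, and the interaction of 1.56 ± 0.97 had an unadjusted p of 0.136. Its 95% interval of −0.57 to 3.69 covers both no departure and a large one.

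Osgin1, an oxidative-stress-induced growth inhibitor and known target of NRF2, was also highest in the combination. It had 323 and 352 normalized counts in CSF1Ri+CD40 libraries, 86 and 75 in CSF1Ri libraries, 22, 0 and 0 in CD40 libraries, and 80, 62 and 72 in Control libraries. CSF1Ri and Control overlapped, the CD40 libraries were lowest, and the combination lay far above all others. Its interaction was 6.72 ± 1.75 at a pseudocount of 1, 7.39 at 0.5 and 4.40 at 10, and 3.62 among the 7 libraries without Y-linked transcripts, where CD40 2 and CD40 3, both at 0, are left out. The list of the oxidative stress response as a whole had 9 of 16 positive and a median of 0.35, which ran from 0.04, without CSF1Ri 6, to 0.54, without CSF1Ri 1.

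Lilrb4a, an inhibitory immunoglobulin-like receptor, had 940 and 968 normalized counts in CSF1Ri+CD40 libraries, 382 and 322 in CSF1Ri libraries, 387, 385 and 283 in CD40 libraries, and 284, 232 and 216 in Control libraries, and an interaction of 0.92 (95% interval −0.06 to 1.90). Trbv14, a variable segment of the T cell receptor β chain, had 583 and 584 in CSF1Ri+CD40 libraries, 161 and 96 in CSF1Ri libraries, 171, 52 and 159 in CD40 libraries, and 83, 106 and 83 in Control libraries (1.90 ± 0.81, unadjusted p = 0.0381). Its level depends on which clones were sampled as well as on regulation, which these counts do not separate. Nmnat2, an enzyme of NAD synthesis, had 2.85 (−0.47 to 6.17).

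In the lower set, Csf1r, the target of the inhibitor, had 30 and 41 normalized counts in CSF1Ri+CD40 libraries, 99 and 133 in CSF1Ri libraries, 235, 99 and 109 in CD40 libraries, and 110, 120 and 106 in Control libraries. CSF1Ri libraries lay on either side of the controls, and the combination was below every other library. The interaction was −1.97 ± 0.82 (unadjusted p = 0.0348), at levels that are low in all libraries. The macrophage list, Csf1r included, had 11 of 24 positive and a median of −0.12, which ran from −0.49, without CD40 3, to 0.55, without CD40 1, with 1 library left out. Among the 7 libraries without Y-linked transcripts, Csf1r was at −2.73, 3 of the 24 were positive and the median was −1.09. That set holds CD40 1 as its only CD40 library. The macrophage list averaged 1.56 in CD40 1, −1.03 in CD40 2 and −2.18 in CD40 3 (log2 over the control mean). Cd40 had 156 and 85 in CSF1Ri+CD40 libraries, 200 and 148 in CSF1Ri libraries, 42 to 405 in CD40 libraries and 90 to 366 in Control libraries, and −0.62 (95% interval −3.39 to 2.15), with −1.70 in the 7-library set. Fmo5, a flavin monooxygenase, was also lowest in the combination, with 0 and 4 in CSF1Ri+CD40 libraries, 61 to 160 in single-agent libraries and 18 to 109 in Control libraries. Galnt10, an enzyme of O-glycosylation, had 12 and 6 in CSF1Ri+CD40 libraries, 39 to 191 in single-agent libraries and 37 to 52 in Control libraries.

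Markers of cells other than T cells were present and moved with the contrast. For keratinocytes 15 of 16 members tested were positive, 3 at an unadjusted p under 0.05, with a median of 3.23, and for fibroblasts 12 of 13 were, 1 at that level, with a median of 3.20. Their summed levels were low, at 816 and 3966 normalized counts for keratinocytes in CSF1Ri+CD40 libraries, 600 and 910 in CSF1Ri libraries, 447 to 2578 in CD40 libraries, and 1794 to 3622 in Control libraries. The combination libraries differed widely from each other, and the groups overlapped. At an unadjusted p under 0.05 were 18.8% of the keratinocyte list and 7.69% of the fibroblast list, against 4.17% of all genes. Without CSF1Ri+CD40 3 the keratinocyte median was 1.21, and among the 7 libraries without Y-linked transcripts the medians were 1.69 for keratinocytes and 0.69 for fibroblasts. Krt14, a keratin of basal keratinocytes, had 218 and 843 in CSF1Ri+CD40 libraries, 108 and 104 in CSF1Ri libraries, 363, 77 and 11 in CD40 libraries, and 284, 271 and 775 in Control libraries. Its interaction was 4.49 ± 1.60, 3.22 without CD40 3 and 2.34 in the 7-library set. Col1a1, the main collagen of fibroblasts, had 3.76 ± 1.64, 2.39 without CSF1Ri+CD40 3, 2.55 without CD40 3 and 1.52 in the 7-library set.

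Anxa8, an epithelial annexin, and Igfbp5, a secreted IGF-binding protein of stromal cells, were at 0 in both CSF1Ri libraries, so no fitted fold against that group is a bound. Anxa8 had 47 and 81 normalized counts in CSF1Ri+CD40 libraries, 55, 135 and 70 in CD40 libraries, and 83, 187 and 164 in Control libraries. Its interaction was 6.73 at a pseudocount of 1, 7.72 at 0.5 and 3.54 at 10. Igfbp5 had 101 and 299 in CSF1Ri+CD40 libraries, 54, 0 and 34 in CD40 libraries, and 44, 83 and 123 in Control libraries, with 10.09 at a pseudocount of 1 and 5.73 at 10. The part of keratinocytes or fibroblasts in the type 17 and receptor-signaling results was not tested.

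Other cell types were mixed. Mast cell genes had 4 of 14 positive and a median of −0.78, which ran from −1.78 to 0.08 with 1 library left out, the highest without CSF1Ri 1. In this list, Ms4a2, the β chain of the IgE receptor, had 210 and 95 normalized counts in CSF1Ri+CD40 libraries, 2 and 0 in CSF1Ri libraries, 144, 11 and 38 in CD40 libraries, and 37, 28 and 25 in Control libraries (5.95 ± 1.62 at a pseudocount of 1, 3.36 at 10, and 3.96 in the 7-library set). Natural killer and innate lymphoid genes had 3 of 13 positive and a median of −0.65, with Fcer1g, a signaling chain of Fc and natural killer receptors, at −1.77 ± 0.59. B and plasma cell genes had 6 of 14 positive and a median of −0.26, which ran from −1.58, without CSF1Ri 6, to 0.27, without CSF1Ri 1, with 1 library left out and was −1.80 in the 7-library set. Mzb1, a chaperone of antibody-secreting cells, was at 0 in both CSF1Ri+CD40 libraries, 342 and 27 in CSF1Ri libraries, 79, 11 and 77 in CD40 libraries, and 23, 6 and 29 in Control libraries, with an interaction of −7.91 at a pseudocount of 1 and −4.51 at 10. Of 6 erythroid genes tested, 4 had both combination libraries below all others, against 1.62% of all genes. A positive interaction was found in 0 of them, against 49.1% of all genes, but the median of −1.02 was 1.06 without CSF1Ri+CD40 1. The list averaged −7.2 and −3.45 in CSF1Ri+CD40 libraries, −2.34 to −1.35 in single-agent libraries and −1.13 to 0.71 in Control libraries (log2 over the control mean). Hbb-bt, a β globin, had 0 and 10 in CSF1Ri+CD40 libraries, 130 and 273 in CSF1Ri libraries, 80, 155 and 79 in CD40 libraries, and 1095, 1378 and 309 in Control libraries, and its interaction was −2.88 on the log2 scale but positive on the linear scale (626 counts).

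**Figure D5:**
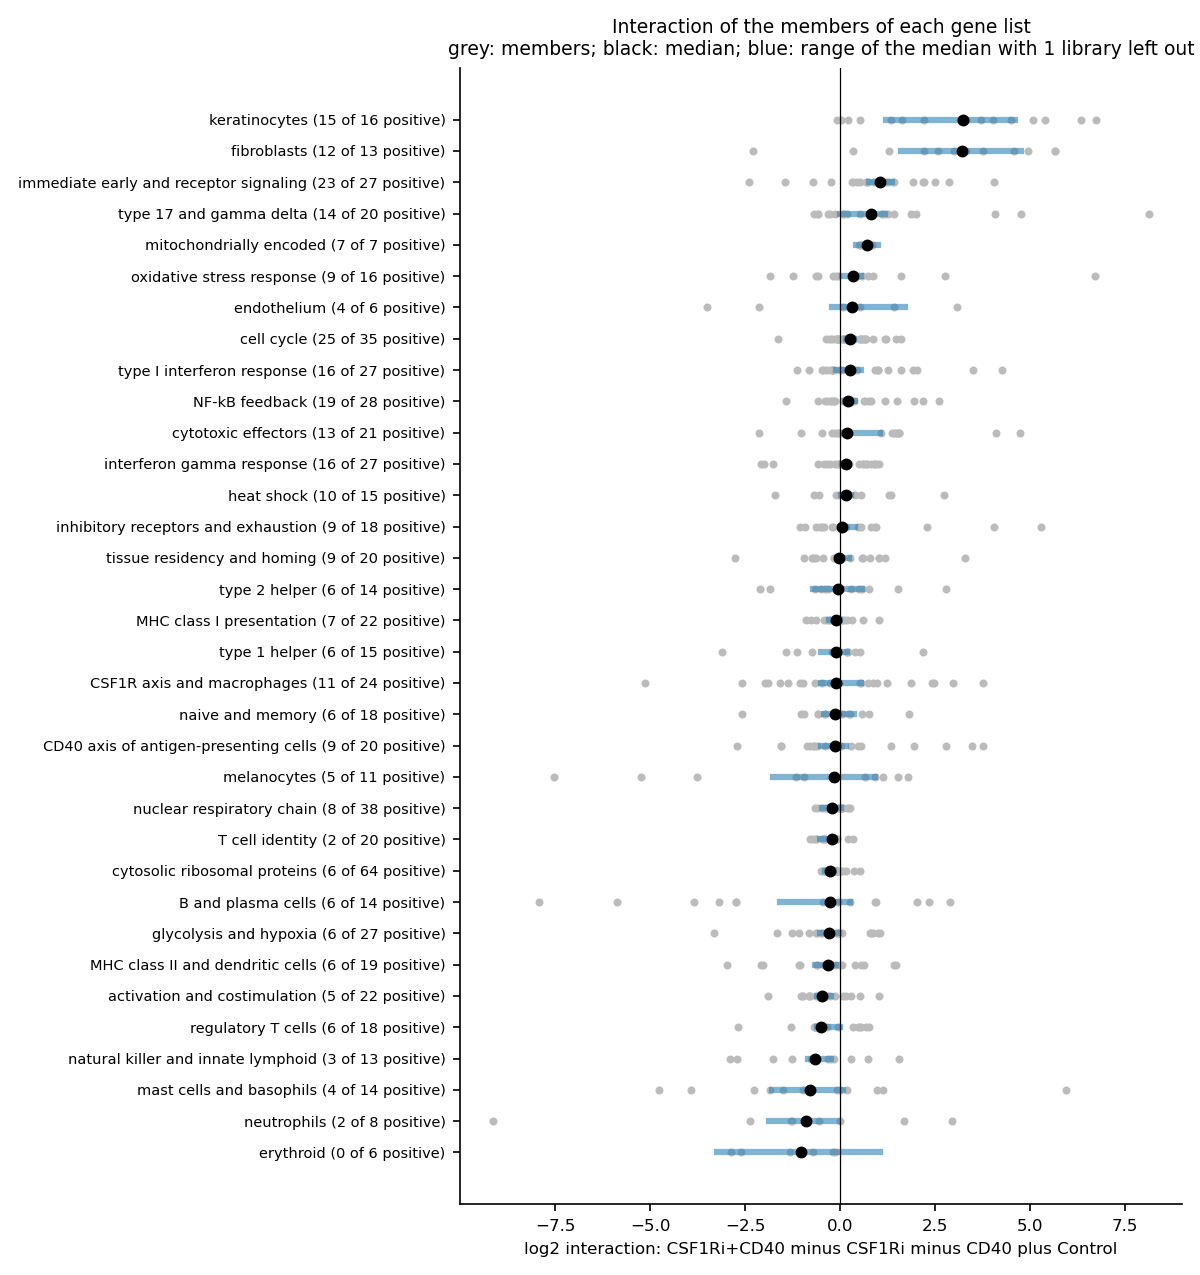
Log2 interaction (horizontal) of the tested members of each gene list (grey), with the list median (black) and the range of that median when 1 library is left out (blue). Keratinocyte, fibroblast, receptor-signaling and type 17 lists have the highest medians, at 3.23, 3.20, 1.04 and 0.81, and the T cell identity median lies below 0 with every library left out.

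Class I presentation had 7 of 22 positive and a median of −0.10. Class II and dendritic cell genes had 6 of 19 positive and a median of −0.32, and 4 of 19 and −0.93 in the 7-library set. Members differed, with H2-Q6, a nonclassical class I molecule, at 0.61 ± 0.27, from 3223 and 3604 normalized counts in CSF1Ri+CD40 libraries against 2167 to 2497 in the other 8, and H2-M3, which presents formylated peptides, at −0.90 ± 0.38. Counts of H2-Q6 depend on how reads shared with other Q-region genes were assigned. Genes of the interferon γ response had 16 of 27 positive and a median of 0.16, of type I interferon 16 of 27 and 0.25, and of the cell cycle 25 of 35 and 0.26. At an unadjusted p under 0.05 were 1, 0 and 1 member (3.7%, 0.0% and 2.86%), against 4.17% of all genes. The type I interferon median ran from −0.12, without CD40 3, to 0.55, without Control 1, with 1 library left out and was −0.01 in the 7-library set.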

How the data were processed

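Bulk RNA sequencing of T cells from pooled mouse melanomas gave 10 libraries in 4 groups. Per the labels' protocols, 50 ng of RNA per library was prepared with a SMARTer kit without strand information and read as 75-base pairs on a HiSeq, 6 libraries per lane. The submitters' processing notes name STAR, HTSeq and DESeq2 and the build GRCm38 (mm10), and versions are not given in the sources used here. The deposited values are a score: per the labels, the authors counted reads per gene and used DESeq2, and the values are whole numbers. Median-of-ratios factors computed from them differ from 1 by at most 0.13%, so they were taken as normalized and rounded counts, no further scaling was applied and tools for raw reads were not used. Totals were 11538244 to 14024851. Of 48825 genes, 25779 were at 0 in every library, 27 names had been turned into numbers and 2 were repeated. Over the genes tested, 2 libraries had the same value at most 7.26% of the time.

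Genes with at least 10 in at least 2 libraries (15716) were fitted on log2(value + 1) in limma 3.58.1 (R 4.3.3) with 4 group means, a variance trend, leaving 6 residual degrees of freedom beside 5.48 prior ones. The contrast was CSF1Ri+CD40 minus CSF1Ri minus CD40 plus Control, two-sided, with Benjamini-Hochberg adjustment over all genes tested. The script was tested on simulated data. Effects given after ± are standard errors and intervals cover 95%. Other steps used matplotlib 3.10.9, scipy 1.17.1, numpy 2.4.6 and pandas 2.3.3 in Python 3.11.15.

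The members, the 34 gene lists (683 of 726 entries tested) and the alternatives were chosen with earlier results of these data known. Genes were named by rule from genes averaging 50 or more: the 10 per direction with the smallest p, the 5 per direction with the widest gap in each pattern of library positions, 3 per list described and 18 always given. Others are said to be chosen after their values were seen. Some genes named by the rule are left out for length. CSF1Ri 1 has no number in its title. Gene positions are from the GENCODE annotation of GRCm38 and promoter windows from RefSeq. An allele of the strain and a gene are not reported here.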

Additional observations from a re-analysis of the deposited data

How the results depend on the processing

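With 6 residual degrees of freedom and 2 or 3 pooled libraries per group, only large departures could pass. The count past an adjusted p of 0.05 was 0 under the pseudocounts, filters, totals, quantile scaling and robust fit tried. It was also 0 with a term for the title numbers, for Y-linked transcripts or for Malat1. On the square root scale it was 2 (Il17a and Il22), and without a variance trend it was 6. Without CD40 1, Il17a and Il17f passed (adjusted p of 0.00237 and 0.00964, limma). The count at an unadjusted p under 0.05 was 331 with a mean of at least 100, from fewer genes tested, and 345 to 1297 with 1 library left out, highest without CD40 3 (724 positive and 573 negative) and lowest without CSF1Ri 6. With 1 library left out, counts of genes with both combination libraries outside the others were 692 to 3314 (all 10 libraries, 618), and those with single-agent libraries outside were 186 to 410 (all 10 libraries, 118), since fewer libraries are asked to separate. The inhibitor correlation ranged from −0.107 to 0.115 on leaving out 1 library. The main fit did not pair the libraries by the numbers in the titles. Departures from the group means in 7 same-number pairs correlated from −0.266 to 0.182. Pairs of different numbers were not compared, so these values cannot decide whether the numbers pair the libraries. With the replicate block 678 genes had an unadjusted p under 0.05 and 0 an adjusted one. Of 1615 gene values under alternatives, 32 changed sign, in 8 of 65 genes described, and the cause was not tested. For Cd3e the sign changed under quantile scaling (0.01), for Cd8a under quantile scaling (0.04) and on the linear scale (23 counts), for Gzmb with the replicate block (0.18), in the 7-library set (0.14) and on the linear scale (11.7), and for Prf1 on the linear scale (38.8). Ifng was −0.92 in the 7-library set. Tcf7 was 0.03 with equal totals, 0.01 under quantile scaling, 0.14 on the square root scale, 0.15 with the Y-linked term, 0.06 with the Malat1 term and 95.7 on the linear scale. Hbb-bt was 6.79 on the square root scale and 626 on the linear scale. With 1 library left out, Cd40 ranged from −1.54 to 0.08, Cd3e from −0.42 to 0.13, Cd8a from −0.64 to 0.32, Gzmb from −0.51 to 0.27, Prf1 from −1.02 to 0.07, Ifng from −0.63 to 1.22 and Tcf7 from −0.41 to 0.43. Of 34 list medians, 19 kept their sign under every alternative.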
